A study of Mus musculus with 4 samples.

Results

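The genes examined here mostly encode enzymes that place or remove methyl groups on histones, with 2 proteins of related complexes. They were chosen by symbol: those that begin with Kmt, Kdm, Setd, Prmt, Smyd, Ehmt, Suv39h or Nsd, and a named set (Setmar, Dot1l, Ezh1, Ezh2, Ash1l, Men1 and Kansl1 among them), without Kmt2c, Kmt2d, Kdm6a and Y-linked genes. The rule found 58 of 18276 genes in the table. One of them, Nsdhl, matches the letters only and encodes an enzyme of cholesterol synthesis, so 57 genes were described. Prmt8, Smyd1, Kdm4dl and Kdm6bos, which fit the rule too, are not analysed here. Kansl1 encodes a subunit of a histone acetyltransferase complex and Men1 encodes menin, a subunit of KMT2A and KMT2B complexes, so these genes encode no methyl-transferring enzyme themselves.

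RNA with poly(A) tails was sequenced from bone marrow cells of mice on a mixed B6;129 background, gated as osteoclast progenitors by the absence of B220, CD3 and Mac-1 and the presence of CD115, the receptor encoded by Csf1r. The genotype of 2 libraries is Ptip flox/flox Mx-1Cre (Ptip_KO), with Ptip (gene symbol Paxip1) deleted by Cre, and that of the other 2 is WT Mx-1Cre (WT). All 4 libraries therefore share the Cre driver, whose promoter responds to interferon and is active in many blood cells. How it was induced, and the age of the mice, are not given in the sources used here. The replicates are called independent, but whether each is another mouse is not stated. RNA of the Y-linked gene Ddx3y, given below, was found in WT replicate 1 and was nearly absent from WT replicate 2. These 2 WT libraries are therefore of different sex and not from the same mouse. Both Ptip_KO libraries had Ddx3y, so the sexes are not balanced between the groups. The p-values cover only the variation among these 4 libraries, which in Ptip_KO may be technical.

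Methylation of a histone lysine acts through proteins that bind the methylated residue, and its effect depends on the position. Methylated lysine 4 of histone H3 (H3K4) marks promoters and enhancers in use, H3K36 and H3K79 methylation mark transcribed gene bodies, and H3K9, H3K27 and H4K20 methylation are found in silent or compacted chromatin. Methyltransferases with a SET domain, and DOT1L without one, write these marks. Demethylases of the KDM1 and Jumonji families erase them. PTIP is a subunit of the KMT2C and KMT2D complexes, which methylate H3K4 at enhancers, and those complexes also hold the H3K27 demethylase KDM6A.

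Values are CPM, read counts scaled by the authors to effective library sizes, and the 4 libraries held 67592972 to 77773478 reads. Paxip1, the deleted gene, had 5.10 and 3.73 CPM in the Ptip_KO libraries, against 106 and 103 CPM in the WT libraries. The marker of the gate, Csf1r, had 825 and 782 CPM in Ptip_KO, against 677 and 606 CPM in WT. Itgam, which encodes a chain of Mac-1, had 39.2 and 35.1 CPM in Ptip_KO, against 42.1 and 39.6 CPM in WT. Tnfrsf11a, the gene of the osteoclast receptor RANK, had 7.37 and 6.11 CPM in Ptip_KO, against 8.19 and 4.86 CPM in WT. Of the 8 tested sort and osteoclast progenitor markers 2 fell, both of them receptor genes of early progenitors. Kit had 14.4 and 16.1 CPM in Ptip_KO, against 49.5 and 73.1 CPM in WT (log2 fold change -1.91, limma adjusted p = 0.00908). Flt3, which the dendritic cell list holds too, had 42.8 and 34.5 CPM in Ptip_KO, against 67.6 and 77.8 CPM in WT (log2 fold change -0.90, limma adjusted p = 0.0244). Mpo, which granulocyte and monocyte progenitors express, had 5885 to 8481 CPM, and T and NK cell markers summed to at most 4.11 CPM in a library. Markers of other cells differed between the groups. Of 12 tested erythroid markers 8 fell by limma (3 were called by edgeR and 10 by DESeq2), with sums of 809 and 1108 CPM in Ptip_KO, against 2095 and 4831 CPM in WT. Of 9 tested macrophage markers 6 fell, with sums of 219 and 189 CPM in Ptip_KO, against 355 and 224 CPM in WT. The sums include Cd68, which did not fall (log2 fold change 0.12, limma adjusted p = 0.690). Cd68 had 199 and 165 CPM in Ptip_KO, against 229 and 121 CPM in WT. Of the 6, C1qa, C1qb and C1qc had at most 3.79 CPM in any library. Of 10 tested dendritic cell markers 6 fell and 1 rose, with sums of 257 and 259 CPM in Ptip_KO, against 442 and 359 CPM in WT. In the neutrophil list 1 of 12 tested members fell by limma and 3 were called by DESeq2, 10 lay below 0 in log2 fold change, with a median of -1.14. S100a8, a granule protein gene of that list, had 287 and 183 CPM in Ptip_KO, against 503 and 884 CPM in WT (limma adjusted p = 0.0521). Summed, the list had 10886 and 11601 CPM in Ptip_KO, against 9908 and 14799 CPM in WT. Of the 2 B cell markers tested Cd79b rose. None of the 18276 genes in the table was at 0 in all 4 libraries, so the same holds for every marker in it and is no sign of expression. Xist, the RNA that coats an inactivated X, was at 0.0788 and 0.0428 CPM in Ptip_KO, against 0.0814 and 298 CPM in WT. Ddx3y, on the Y chromosome, was at 89.6 and 82.1 CPM in Ptip_KO, against 69.1 and 0.101 CPM in WT.

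The comparison asked which transcripts differ after deletion of Ptip, read here for the writers and erasers of histone methylation. One of them, the demethylase gene Kdm7a, fell in Ptip_KO, and 0 rose. Its call was lost without either Ptip_KO library. Of the 57 genes, 56 had at least 1 CPM in 2 or more libraries and were tested. Kdm4d, at 0.355 and 0.414 CPM in Ptip_KO, against 0.258 and 0.342 CPM in WT, was not. A share of 1.79% of these genes passed a limma adjusted p of 0.05, where 6.29% of all 12357 tested genes did (2.43% higher and 3.86% lower in Ptip_KO). By the edgeR quasi-likelihood test the gene called was again Kdm7a, with 5.34% of all genes called. DESeq2 called 5 of 56 (8.93%), where it called 15.4% of all genes. These were Kdm7a, Kmt5a, Ezh1, Kdm3a and Nsd2. Without WT replicate 2, limma called 4 of 56 (7.14%), Kdm7a, Kdm5b, Kdm3a and Kmt5a, where it called 13.1% of all genes. It called 2 without WT replicate 1 and 0 without either Ptip_KO library. At an unadjusted limma p under 0.05, this set had 13 genes (23.2%) and all genes 23.8%. The groups did not overlap for 36 of 56 genes (64.3%), and for 55.1% of all tested genes. Ptip_KO was above WT for 19 of the 56 (33.9%) and below for 17 (30.4%), where the shares over all tested genes were 27.7% above and 27.3% below.

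The log2 fold changes of the 56 genes ran from -0.67 to 0.52. Of them 28 were positive and 28 negative, with a median of 0.01 where all tested genes had 0.0032. For 55 of 56 genes the 95% interval of the fold change lay within a 2-fold difference in either direction, and for 47 it lay within 1.5-fold. The exception for 2-fold was Kdm5b. Summed over the 57 genes, the level was 4443 and 4413 CPM in Ptip_KO, against 4620 and 4433 CPM in WT.

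**Figure D1:**
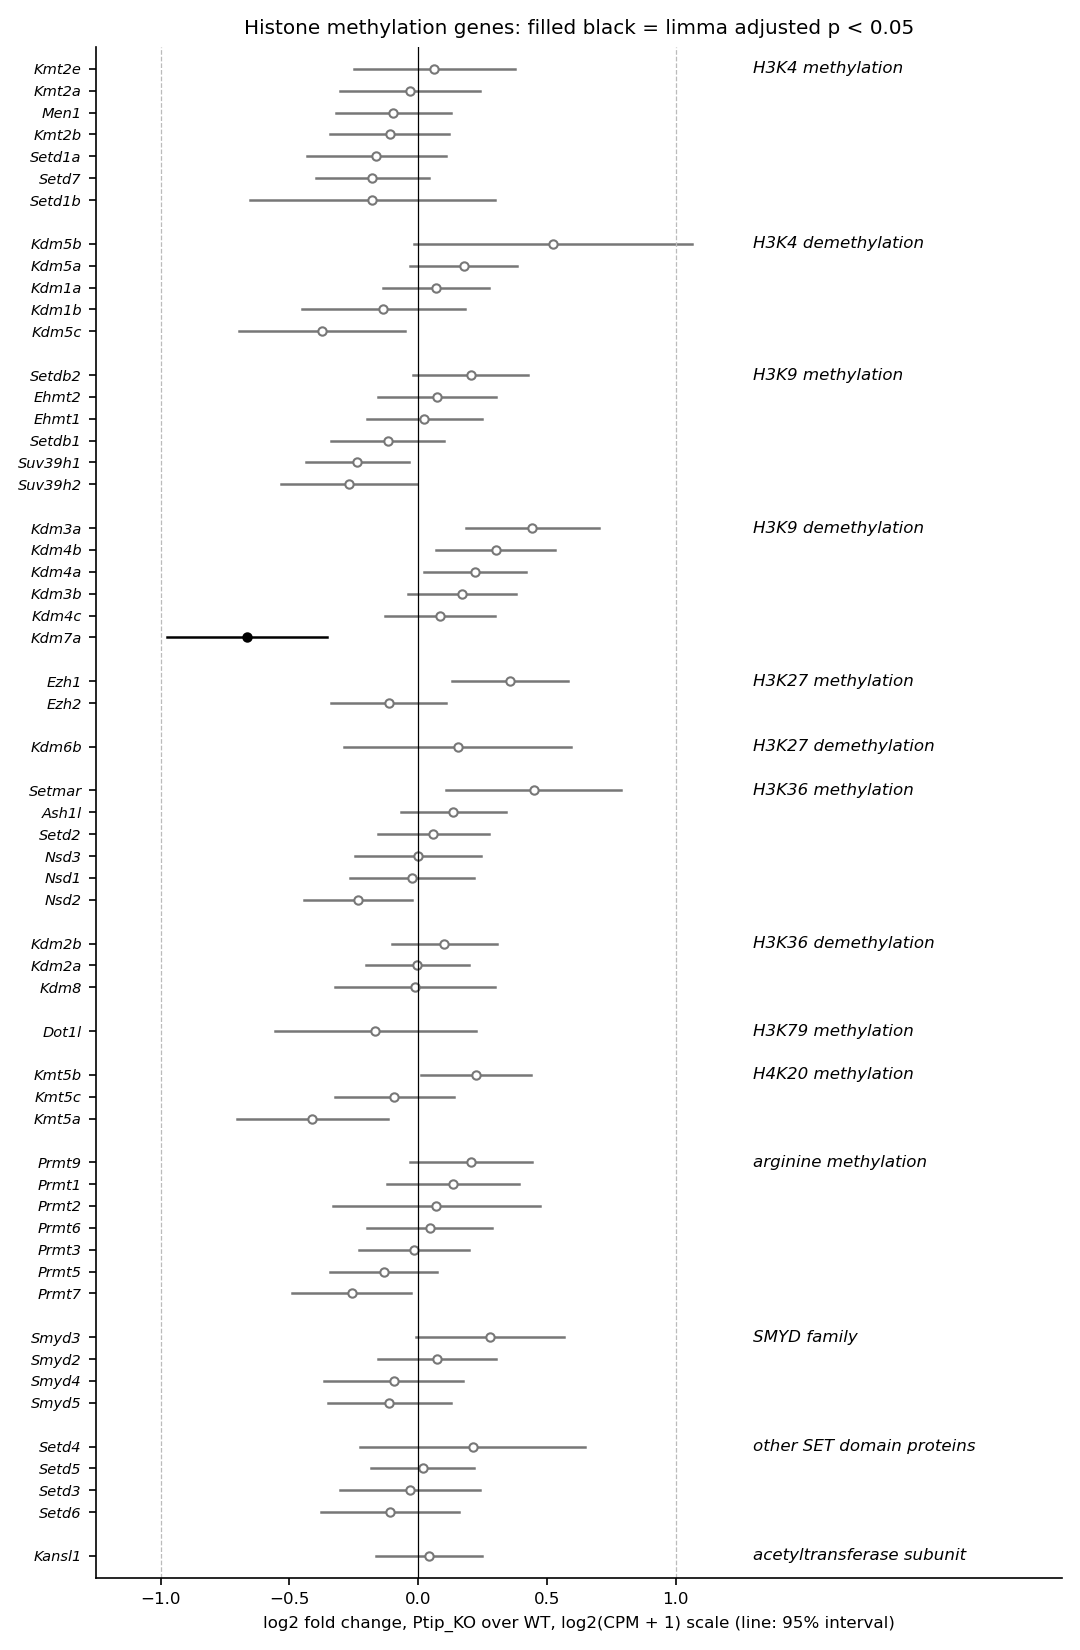
Log2 fold change of Ptip_KO over WT on the log2(CPM + 1) scale for the 56 tested genes, grouped by the residue their products act on, with 95% intervals from limma (n = 2 libraries a group). Only Kdm7a (-0.67, filled) passed the threshold, and the interval of Kdm5b alone crosses a dashed line of a 2-fold difference.

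Promoter sequences are given for the genes past the threshold by limma or DESeq2 that have an entry whose start lies within 20 bases of the GENCODE start: Kdm7a, which fell, and Kmt5a and Ezh1, which passed by DESeq2 in opposite directions. Each run is the 250 bases before the start on the gene's strand, from RefSeq on GRCm38.p6. Capitals mark motifs searched on both strands, with overlapping matches counted: the GC box GGGCGG, the CCAAT box, the hypoxia response element core ACGTG, and the E2F motif TTTCCCGC.
Kdm7a, chr6:39206774-39207023, minus strand: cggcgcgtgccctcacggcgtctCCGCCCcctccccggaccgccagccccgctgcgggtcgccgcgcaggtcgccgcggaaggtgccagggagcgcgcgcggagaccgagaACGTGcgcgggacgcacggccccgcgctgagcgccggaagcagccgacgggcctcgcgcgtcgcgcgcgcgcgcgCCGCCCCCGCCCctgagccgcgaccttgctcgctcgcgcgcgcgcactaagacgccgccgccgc
Kmt5a, chr5:124439680-124439929, plus strand: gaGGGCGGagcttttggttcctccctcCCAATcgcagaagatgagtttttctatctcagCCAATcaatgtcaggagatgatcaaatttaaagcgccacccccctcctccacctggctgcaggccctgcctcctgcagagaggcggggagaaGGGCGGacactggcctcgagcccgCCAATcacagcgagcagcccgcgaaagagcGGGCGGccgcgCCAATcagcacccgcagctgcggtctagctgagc
Ezh1, chr11:101226464-101226713, minus strand: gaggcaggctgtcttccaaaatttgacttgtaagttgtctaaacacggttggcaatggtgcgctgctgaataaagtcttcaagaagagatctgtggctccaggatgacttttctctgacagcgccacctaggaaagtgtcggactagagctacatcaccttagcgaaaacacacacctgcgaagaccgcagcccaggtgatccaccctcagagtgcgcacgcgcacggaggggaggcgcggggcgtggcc
Kdm7a had 3 matches of GGGCGG and 1 of ACGTG, Kmt5a had 3 of GGGCGG and 4 of CCAAT, and Ezh1 had 0 of the 4 motifs. Over all 32851 promoters, 32.7% held GGGCGG, 33.8% CCAAT, 16.6% ACGTG and 0.895% TTTCCCGC. Of 250 bases, 82.0% were G or C in Kdm7a, 62.0% in Kmt5a and 55.2% in Ezh1. The matches are a description of these letters.

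Between genes, levels were compared per kilobase of annotated exon. Ehmt2, which encodes the H3K9 dimethylase G9a, was the most abundant at 49.0 CPM per kb over the 4 libraries. Kmt5a, the H4K20 monomethylase, followed at 38.8 CPM per kb, and Kmt5c at 24.9 and Suv39h1 at 22.4 CPM per kb came next. The lowest tested genes were Setd4 (0.537 CPM per kb) and Prmt2 (0.722 CPM per kb). Exon length here is the union of all annotated transcripts, so a gene whose long isoforms are not used is understated.

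**Figure D2:**
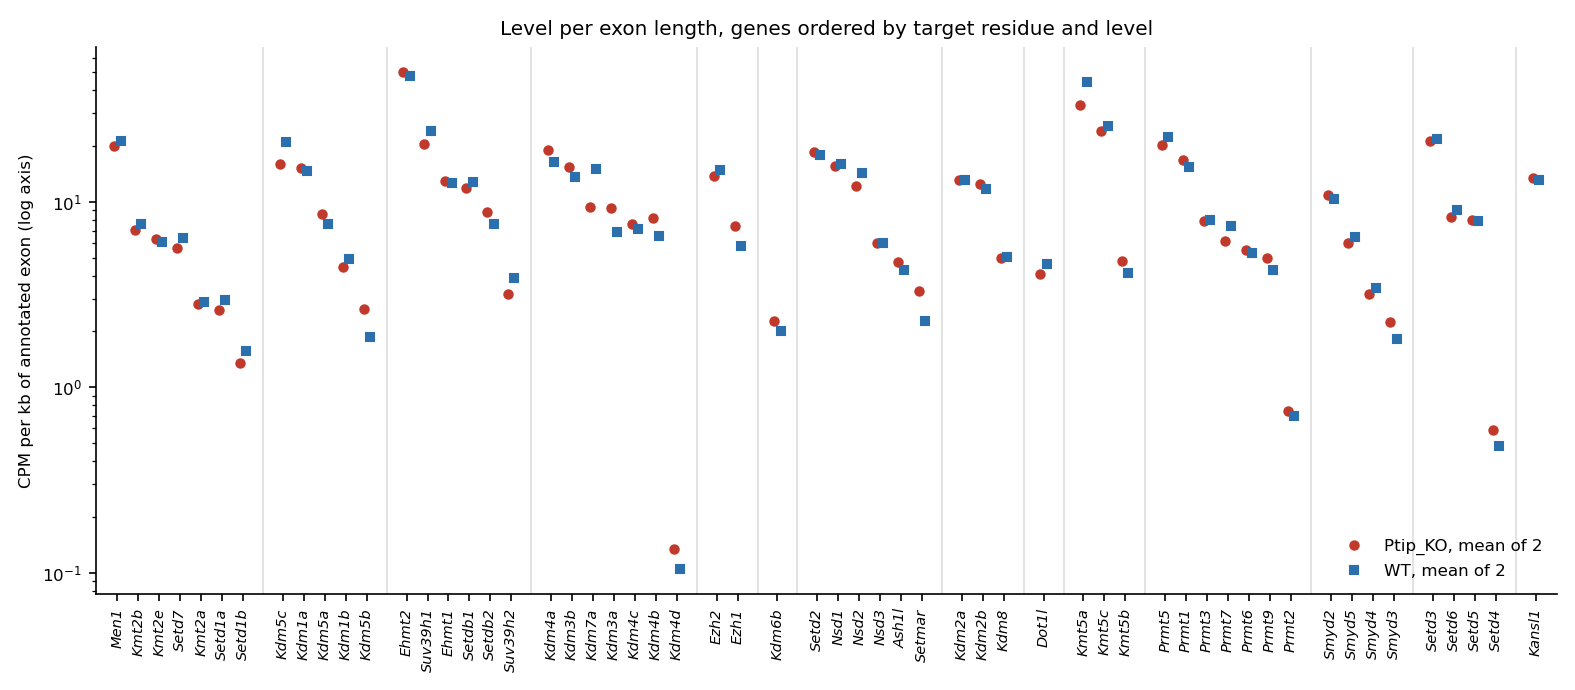
Mean level in CPM per kilobase of annotated exon (log axis) in Ptip_KO (circles) and WT (squares), n = 2 libraries each, with genes ordered by target residue and level. Ehmt2 and Kmt5a are highest, and Kdm4d is lowest.

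KDM7A removes methyl groups from H3K9 and H3K27. Its gene Kdm7a had 97.1 and 91.3 CPM in the Ptip_KO libraries, against 167 and 134 CPM in the WT libraries. Both Ptip_KO values were below both WT values. Its mean was 94.2 ± 4.08 CPM in Ptip_KO, against 151 ± 23.3 CPM in WT (SD, n = 2 each). On the log2(CPM + 1) scale it fell by 0.67 (standard error 0.125, limma adjusted p = 0.0417). Its adjusted p was 0.0394 by edgeR and 4.97e-06 by DESeq2. Without Ptip_KO replicate 1 it was 0.0846 and without Ptip_KO replicate 2 it was 0.128 by limma, with log2 fold changes of -0.71 and -0.62, and without WT replicate 2 it was 0.00113. Kdm7a (ENSMUSG00000042599.8) lies on chromosome 6 at 39136623 to 39206789 of GRCm38, the assembly of mm10, on the minus strand. It overlaps the antisense gene 4930599N23Rik, which had at most 0.127 CPM. The part of the progenitor (Kit and Flt3), erythroid, neutrophil, macrophage and dendritic cell marker differences in the Kdm7a difference was not tested. In bulk RNA, fewer cells of a type and less RNA per cell cannot be told apart.

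The other 5 tested genes grouped here with H3K9 demethylation were Kdm3a, Kdm3b, Kdm4a, Kdm4b and Kdm4c. Each was higher in both Ptip_KO libraries than in both WT libraries. Over all tested genes 27.7% were placed so. Phf8 and Phf2, demethylase genes that the symbol rule does not reach, were not placed so. Phf8 had 55.6 and 52.8 CPM in Ptip_KO, against 65.6 and 56.6 CPM in WT (log2 fold change -0.17, limma adjusted p = 0.401). The groups of Phf2 overlapped (log2 fold change -0.04). Of the 5, 0 passed limma or edgeR and 1, Kdm3a, passed DESeq2. An unadjusted limma p under 0.05 was found for 3 of the 5, and for 23.8% of all tested genes. KDM3A and KDM3B act on mono- and dimethyl H3K9, and KDM4A, KDM4B and KDM4C on H3K9 and H3K36. Kdm3a had 75.0 and 78.0 CPM in Ptip_KO, against 52.0 and 60.4 CPM in WT. Its log2 fold change was 0.44 ± 0.104 (standard error; limma adjusted p = 0.0689), and the adjusted p was 0.0889 by edgeR and 0.0114 by DESeq2. By limma it was 0.0118 without WT replicate 2, 0.101 without WT replicate 1, 0.218 without Ptip_KO replicate 1 and 0.286 without Ptip_KO replicate 2. It lies on chromosome 6 at 71588972 to 71632990. Kdm4b had 38.4 and 41.4 CPM in Ptip_KO, against 31.7 and 32.6 CPM in WT, a log2 fold change of 0.30 (limma adjusted p = 0.126). Kdm4a had 111 and 110.1 CPM in Ptip_KO, against 95.7 and 93.5 CPM in WT, a log2 fold change of 0.22 (limma adjusted p = 0.174). This was the most abundant gene of the group, at 17.7 CPM per kb. Kdm3b and Kdm4c had log2 fold changes of 0.17 and 0.08.

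**Figure D3:**
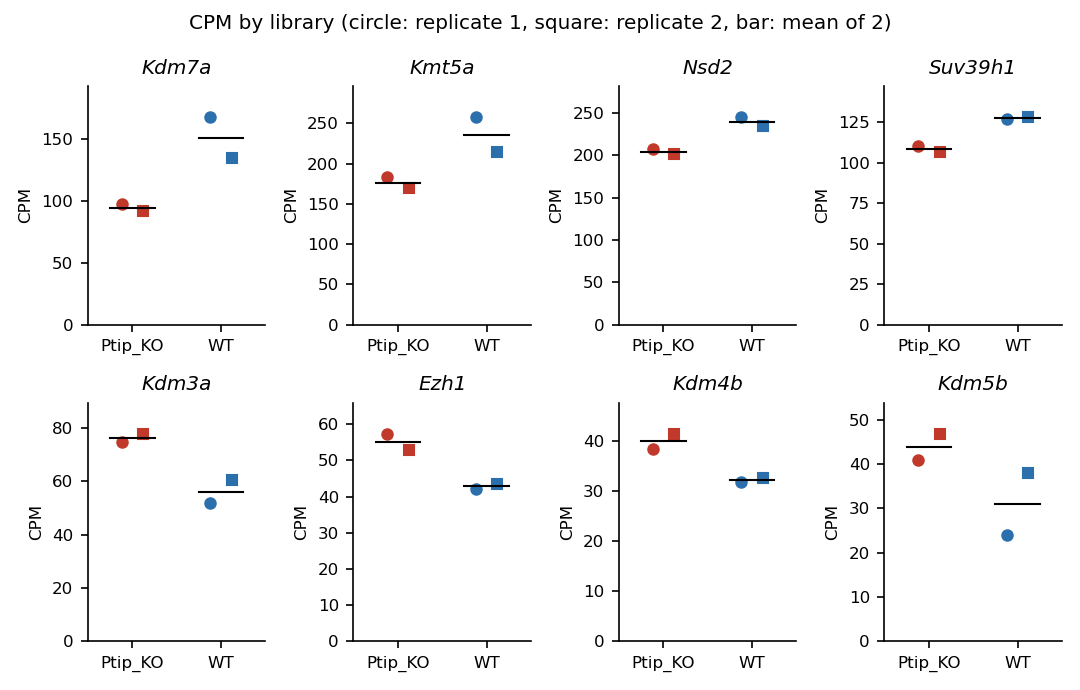
CPM in each library of 8 genes, Ptip_KO left of WT (circle, replicate 1; square, replicate 2; bar, mean of 2; axes start at 0). The 8 were picked among the 36 of 56 tested genes whose groups do not overlap, where 55.1% of all tested genes do not. The WT replicates of Kdm7a, Kmt5a and Kdm5b lie far apart.

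On the writing side of H3K9, 0 of 6 methyltransferase genes passed by limma, edgeR or DESeq2, with 2 at an unadjusted limma p under 0.05, and the intervals of all 6 lay within 1.5-fold. SUV39H1 and SUV39H2 trimethylate H3K9 in heterochromatin. Suv39h1 had 110.2 and 106 CPM in Ptip_KO, against 127 and 128 CPM in WT, with a log2 fold change of -0.24 ± 0.081 (standard error; limma adjusted p = 0.154). Suv39h2 had 13.6 and 14.6 CPM in Ptip_KO, against 17.6 and 16.8 CPM in WT, with a log2 fold change of -0.27 (limma adjusted p = 0.203). In both genes the Ptip_KO values lay below the WT values. Setdb2 went the other way at 36.1 and 35.2 CPM in Ptip_KO, against 31.3 and 30.4 CPM in WT (log2 fold change 0.20, limma adjusted p = 0.242). Setdb1, which the KAP1 corepressor recruits to repeated elements, was at -0.12, and the groups of Ehmt1 and Ehmt2 overlapped.

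Among the genes grouped here with H3K4 methylation, Men1 and Kmt2e included, 0 of 7 passed by limma, edgeR or DESeq2 or at an unadjusted limma p under 0.05. The grouping does not state that each product methylates H3K4. Fold changes were below 1 for 6 of the 7, with a median log2 value of -0.11, where 6113 of all 12357 tested genes were below 1. KMT2A and KMT2B act with menin, and SETD1A and SETD1B are the broad promoter enzymes. Setd7, whose product monomethylates H3K4 and non-histone proteins, had 59.3 and 61.9 CPM in Ptip_KO, against 66.4 and 71.1 CPM in WT, with a log2 fold change of -0.18 (limma adjusted p = 0.292). Setd1a had 17.4 and 18.1 CPM in Ptip_KO, against 21.1 and 18.9 CPM in WT (log2 fold change -0.16, limma adjusted p = 0.430). Kmt2b was at -0.11 and Men1, the most abundant of the group at 20.6 CPM per kb, at -0.10. Kmt2a (45.7 and 48.3 CPM in Ptip_KO, 52.1 and 44.3 CPM in WT), Kmt2e and Setd1b had groups that overlapped. Setd1b had the widest interval of the group, from -0.65 to 0.30.

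The 5 H3K4 demethylase genes lay on both sides of 0, and 0 passed by any of limma, edgeR and DESeq2 (1 had an unadjusted limma p under 0.05). KDM5A, KDM5B and KDM5C remove di- and trimethyl H3K4, and KDM1A and KDM1B remove mono- and dimethyl H3K4. Kdm5b had 40.9 and 46.9 CPM in Ptip_KO, against 23.9 and 38.0 CPM in WT. Its 2 WT libraries lay further apart than the groups' nearest values, and its log2 fold change was 0.52 ± 0.218 (standard error; limma adjusted p = 0.223). Without WT replicate 2 the adjusted p was 0.00226 and the log2 fold change 0.85, and without WT replicate 1 they were 0.417 and 0.20. Kdm5a had 124 and 118 CPM in Ptip_KO, against 105 and 109.5 CPM in WT (log2 fold change 0.18, limma adjusted p = 0.274). Kdm1a was at 0.07, and the groups of Kdm1b overlapped.

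Kdm5c is X-linked and escapes X inactivation in mice. It had 111 and 116 CPM in the Ptip_KO libraries, against 131 and 167 CPM in the WT libraries, and WT replicate 2, the library with Xist, was the highest. The log2 fold change was -0.37 ± 0.130 (standard error; limma adjusted p = 0.159). Without WT replicate 2, so among libraries with Ddx3y and without Xist, it was -0.20 (limma adjusted p = 0.293), and without WT replicate 1 it was -0.54 (0.0119). Kdm6a and Eif2s3x, which also escape X inactivation, were highest in WT replicate 2 too. Kdm6a had 74.3 and 69.9 CPM in Ptip_KO, against 59.7 and 105 CPM in WT. Eif2s3x had 204 and 191 CPM in Ptip_KO, against 226 and 307 CPM in WT. Suv39h1, the other X-linked gene of the 57, had nearly equal WT values. Kdm5c lies at 152233020 to 152274535 of chromosome X, and Suv39h1 at 8061171 to 8074760.

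**Figure D4:**
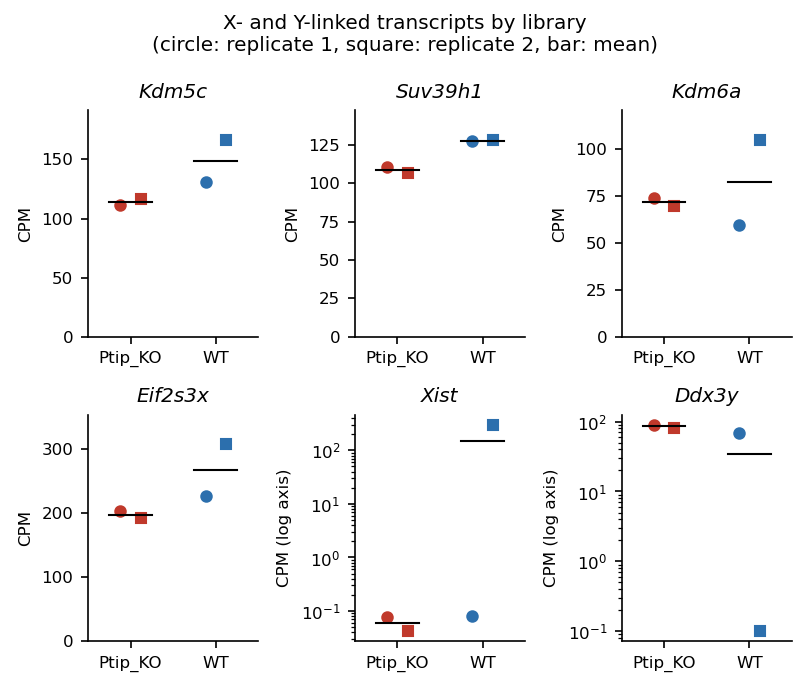
CPM by library of the X-linked genes Kdm5c, Suv39h1, Kdm6a and Eif2s3x, of Xist and of the Y-linked Ddx3y, Ptip_KO left of WT (circle, replicate 1; square, replicate 2; bar, mean; Xist and Ddx3y on log axes). WT replicate 2 has Xist at 298 CPM and the highest Kdm5c, Kdm6a and Eif2s3x.

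For H3K27, EZH2 and EZH1 are the alternative catalytic subunits of Polycomb repressive complex 2 (PRC2), with EZH2 typical of dividing cells and EZH1 of resting ones. Ezh1 had 57.4 and 52.9 CPM in Ptip_KO, against 42.2 and 43.4 CPM in WT. Its log2 fold change was 0.36 ± 0.091 (standard error; limma adjusted p = 0.0814), with an adjusted p of 0.0699 by edgeR and 0.0114 by DESeq2. Ezh2 had 93.96 and 89.5 CPM in Ptip_KO, against 104 and 95.2 CPM in WT (log2 fold change -0.11, limma adjusted p = 0.498). The ratio of Ezh2 to Ezh1 per kb was 1.82 and 1.88 in Ptip_KO, against 2.74 and 2.44 in WT, so Ezh2 was the more abundant in every library. Kdm6b, the gene grouped here with H3K27 demethylation, had 13.0 and 18.7 CPM in Ptip_KO, against 14.2 and 13.7 CPM in WT, and the groups overlapped. Kdm7a, which fell and whose product acts on H3K27 too, is counted with H3K9. Ezh1 lies on chromosome 11 at 101191115 to 101226463.

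Paralogue ratios were taken in the same way for 11 pairs, Ezh2 over Ezh1 among them, picked after their values were seen. In 6 of the 11 pairs the ratio was lower in both Ptip_KO libraries, in 2 it was higher, and in 3 the groups overlapped. Lower or higher depends on which gene of a pair is the numerator. Of single genes, 55.1% of all tested had groups that did not overlap, and no such share was taken for ratios of other genes. These ratios were not tested. Kmt5c over Kmt5b, 2 enzymes that add methyl groups to monomethyl H4K20, was 5.22 and 4.79 in Ptip_KO, against 5.90 and 6.62 in WT. Setdb1 over Setdb2 was 1.27 and 1.42 in Ptip_KO, against 1.67 and 1.69 in WT.

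**Figure D5:**
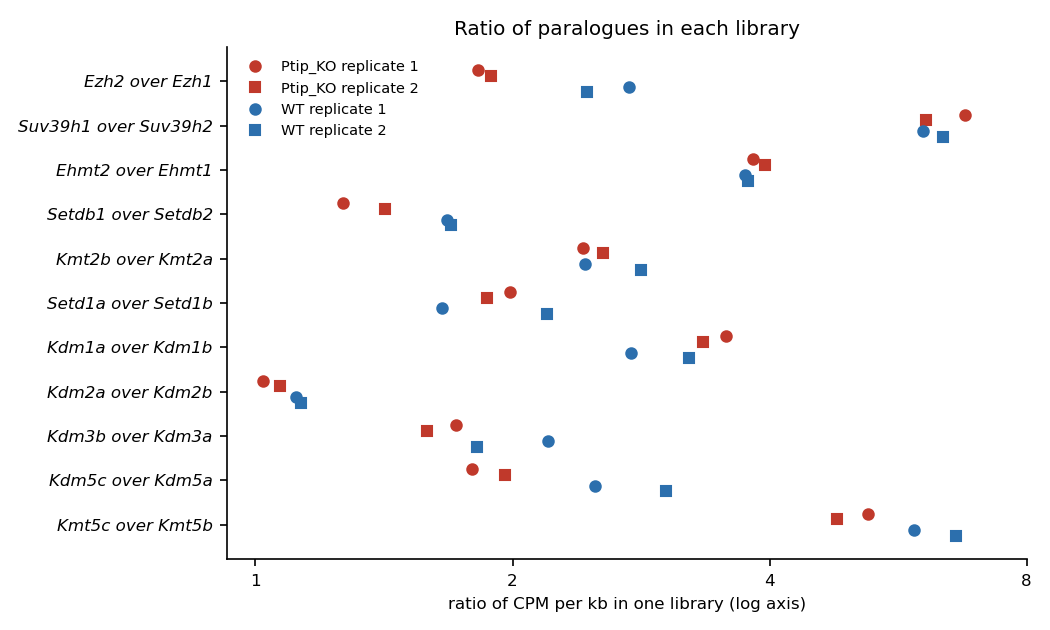
Ratio of 2 paralogues within each library, in CPM per kb (log axis), for 11 pairs (red, Ptip_KO; blue, WT; circle, replicate 1; square, replicate 2). The pairs were picked after their values were seen. The ratio of Ezh2 to Ezh1 is 1.82 and 1.88 in Ptip_KO, against 2.74 and 2.44 in WT.

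In H4K20 methylation, KMT5A places the first methyl group, and its level is tied to the cell cycle. Kmt5a had 183 and 169 CPM in Ptip_KO, against 258 and 214 CPM in WT, so both Ptip_KO values were lower. Its log2 fold change was -0.41 ± 0.119 (standard error; limma adjusted p = 0.109). The adjusted p was 0.0819 by edgeR and 0.00464 by DESeq2. By limma it was 0.0140 without WT replicate 2, 0.190 without WT replicate 1, 0.255 without Ptip_KO replicate 1 and 0.425 without Ptip_KO replicate 2. Kmt5b had 68.9 and 73.5 CPM in Ptip_KO, against 60.8 and 60.7 CPM in WT (log2 fold change 0.22, limma adjusted p = 0.190), and the groups of Kmt5c overlapped. Kmt5a lies on chromosome 5 at 124439930 to 124462308. Of 15 genes of DNA replication, 14 had a negative log2 fold change and 1, Cdc6, fell, with sums of 3628 and 3777 CPM in Ptip_KO, against 4416 and 4380 CPM in WT. Cdc6 did not pass by edgeR (adjusted p = 0.0537) or by limma at a common sum (0.0681) or without Ptip_KO replicate 1 (0.122). By edgeR 2 of the 15 passed, Cdc45, lower in Ptip_KO, and Tyms, higher in Ptip_KO at a log2 fold change of 0.39. DESeq2 called 9, and 11 had an unadjusted limma p under 0.05, with Tyms in both counts as the only gene higher in Ptip_KO. Over all tested genes DESeq2 called 15.4%, and 23.8% had an unadjusted limma p under 0.05. Log2 fold changes were negative for 6113 of all 12357 tested genes. Among 12 mitosis genes 11 were negative, and 0 passed by limma, edgeR or DESeq2 or at an unadjusted limma p under 0.05. The part of replication in the Kmt5a, Nsd2, Suv39h1 or Ezh1 values was not tested.

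Genes grouped here with H3K36 and H3K79 had 0 calls by limma or edgeR and 1 by DESeq2, Nsd2. An unadjusted limma p under 0.05 was found for 2 of them, Nsd2 and Setmar. Kdm4a, Kdm4b and Kdm4c, whose products act on H3K36 too, are counted with H3K9 and not here. NSD1, NSD2 and NSD3 dimethylate H3K36 and SETD2 trimethylates it. Nsd2 had 207 and 201 CPM in Ptip_KO, against 245 and 235 CPM in WT, a log2 fold change of -0.23 ± 0.085 (standard error; limma adjusted p = 0.174), with an adjusted p of 0.0308 by DESeq2. It lies on chromosome 5 at 33820725 to 33897975 and overlaps Nelfa on the opposite strand, which had 71.9 and 63.4 CPM in Ptip_KO, against 78.9 and 67.4 CPM in WT. Setmar, whose human protein was reported to methylate H3K36, had 6.16 and 5.57 CPM in Ptip_KO, against 4.19 and 3.87 CPM in WT (log2 fold change 0.45, limma adjusted p = 0.125). Setd2, the most abundant of the 6 at 18.2 CPM per kb, had 199.6 and 199.7 CPM in Ptip_KO, against 185 and 199 CPM in WT. Nsd1 and Nsd3 had log2 fold changes of -0.02 and -0.0010, and Ash1l of 0.14. The H3K36 demethylase gene Kdm2a was at -0.0031, with 188 and 189 CPM in Ptip_KO, against 190.3 and 188 CPM in WT and an interval from -0.20 to 0.20. Kdm2b was at 0.10 (limma adjusted p = 0.510) and Kdm8 at -0.01. The H3K79 methyltransferase gene Dot1l had 32.7 and 38.8 CPM in Ptip_KO, against 45.8 and 35.1 CPM in WT, and the groups overlapped (limma adjusted p = 0.580).

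Arginine methyltransferases act on histones and on many RNA-binding proteins. Of the 7 genes with a Prmt symbol, 0 passed by any of limma, edgeR and DESeq2 (1 had an unadjusted limma p under 0.05). Prmt7, a monomethylating enzyme, had 38.8 and 36.6 CPM in Ptip_KO, against 46.9 and 43.6 CPM in WT (log2 fold change -0.26, limma adjusted p = 0.172). Prmt9 had 29.3 and 27.4 CPM in Ptip_KO, against 24.2 and 24.7 CPM in WT (log2 fold change 0.20, limma adjusted p = 0.268). Prmt5, the main symmetric dimethylase and the most abundant at 21.4 CPM per kb, had 79.4 and 81.9 CPM in Ptip_KO, against 91.1 and 86.1 CPM in WT (log2 fold change -0.13, limma adjusted p = 0.401). The groups of Prmt1, Prmt2, Prmt3 and Prmt6 overlapped.

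In the SMYD family, whose SET domain is split by a zinc finger, 0 of 4 genes passed by limma, edgeR or DESeq2 or at an unadjusted limma p under 0.05. Smyd3 had 20.8 and 20.3 CPM in Ptip_KO, against 15.5 and 18.1 CPM in WT (log2 fold change 0.28, limma adjusted p = 0.221). Smyd5, Smyd4 and Smyd2 were at -0.11, -0.09 and 0.07. Of the remaining SET domain genes, Setd4 had 2.81 and 3.54 CPM in Ptip_KO, against 2.31 and 2.90 CPM in WT, with a log2 fold change of 0.21, and Setd6 was at -0.11 (limma adjusted p = 0.592). Of these 4 genes 0 passed by the 3 tools or at an unadjusted limma p under 0.05. Setd3, which encodes the actin histidine methyltransferase, and Setd5 had groups that overlapped. Kansl1 had 92.1 and 92.4 CPM in Ptip_KO, against 92.1 and 87.1 CPM in WT (log2 fold change 0.04). Nsdhl was at 0.18 (limma adjusted p = 0.374). Near-identical sequence elsewhere in the transcriptome makes the counts of Kdm2b, Setd3, Setd6 and Setdb1 uncertain, and 30 of the 57 genes overlap a gene on the opposite strand. Setd1a overlaps the protein-coding gene Gm49388 on the same strand and shares 3527 bases with it at 100% identity. The count of Setd1a may be uncertain for this reason too. Whether counting used strand is not given in the sources used here.

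Of 58 tested partner genes, listed by complex, 2 passed limma, where 6.29% of all tested genes did. One was Paxip1 and the other Phf21a, which encodes a KDM1A partner that binds unmethylated H3K4. It had 44.9 and 44.9 CPM in Ptip_KO, against 31.1 and 32.6 CPM in WT, and rose by 0.48 on the log2 scale (limma adjusted p = 0.0384). Its adjusted p was 0.0414 by edgeR and 0.00046 by DESeq2. Without Ptip_KO replicate 1 the limma adjusted p was 0.187, and without Ptip_KO replicate 2 it was 0.188, at a log2 fold change of 0.48 in both fits. In the same list of 9 KDM1A and CoREST partner genes, Gfi1b, a repressor found in red cell and platelet precursors, had 1.96 and 3.70 CPM in Ptip_KO, against 6.70 and 9.09 CPM in WT. Its adjusted p was 0.0547 by limma, 0.0940 by edgeR and 0.00256 by DESeq2, and 0.00503 to 0.110 by limma with 1 library left out, the highest without Ptip_KO replicate 1. Jarid2, a PRC2 partner, had 80.0 and 76.4 CPM in Ptip_KO, against 111 and 101 CPM in WT. It missed the threshold by limma (adjusted p = 0.0561) and passed by edgeR (0.0436), by DESeq2 (0.000194) and by limma at a common sum (0.0428).

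Of 9 PRC2 partner genes 0 passed limma, with a median log2 fold change of -0.09, and after Jarid2 the smallest p was that of Phf1 (-0.25, limma adjusted p = 0.339). Of 8 genes of subunits and partners of H3K4 methyltransferase complexes, not all of them shared, 0 passed by any of the 3 tools (1 at an unadjusted limma p under 0.05). Of the 8, 7 had a negative log2 fold change (median -0.09), where 6113 of all 12357 tested genes did. Wdr5 was at -0.21 and Rbbp5 at -0.22. Ncoa6, which belongs to the PTIP complexes, was at -0.13 (limma adjusted p = 0.753). The 9 partner genes of H3K9 methylation had 0 calls by the 3 tools, 2 at an unadjusted limma p under 0.05 and a median of -0.09, with Cbx5, the heterochromatin protein HP1 alpha, at -0.24 and Zfp644 at 0.22. Among 6 DOT1L partners 0 passed by the 3 tools or at an unadjusted limma p under 0.05, with Mllt6 at 0.22 and Mllt1 at -0.20. The 6 further genes of arginine methylation had 0 calls by the 3 tools (1 at an unadjusted limma p under 0.05). Wdr77, the cofactor of PRMT5, was at -0.34 (limma adjusted p = 0.137). Carm1, itself an arginine methyltransferase gene that the symbol rule does not reach, was at -0.14. Of 10 further demethylase and PR domain genes tested 0 passed limma (2 had an unadjusted p under 0.05), and beside Jarid2 the smallest p was that of Prdm16, at 5.23 and 4.05 CPM in Ptip_KO, against 0.950 and 2.60 CPM in WT (limma adjusted p = 0.109).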

How the data were processed

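Poly(A) RNA libraries were made with a stranded Illumina TruSeq kit, per the labels' protocols. TopHat2 2.0.10, HTSeq 0.6.0, edgeR 3.8.6 and build mm10 are named in the submitters' processing notes, without their roles. The authors deposited a signal for each gene, CPM on effective library sizes, per the file headers and name. The 4 columns were matched to samples by their descriptions. The column of WT replicate 2, so numbered in its title, carries the number 3 in the file. Each value was a whole multiple of 1 read (100% within 0.01 read), and 3 reads, the limit a count of 0 allows, are 0.0380 to 0.0428 CPM (counting error only). Symbols were found for 18249 of 18276 identifiers, and 92.2% carried the GENCODE M21 version, from which positions and exon lengths come.

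The test was limma (version 3.58.1, R version 4.3.3) on log2(CPM + 1) of genes that reached 1 CPM in 2 or more libraries, with genotype as the only term, a trended prior, 2-sided p and Benjamini-Hochberg adjustment over all 12357 genes at 0.05. This scale understates changes of low genes. Recovered read counts were tested with edgeR 4.0.16 (quasi-likelihood) and DESeq2 1.42.0. A near-identical copy is a transcript that BLAST (version 2.17.0) aligned at 95% identity or more over 200 bases and 50% of the shorter transcript. On simulated data with 200 of 12357 genes changed, limma recovered 23.9% of 1.5-fold, 76.1% of 2-fold and 98.5% of 4-fold changes, with 4 false calls. The replicates were not the same library (chi-square per degree of freedom 54.5 in Ptip_KO and 117 in WT).

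The members and lists were chosen with earlier results of these data known. Named were members past the threshold by limma, edgeR or DESeq2, the 2 smallest p and the highest level per kb of each group, X-linked members, and the 2 smallest p of each partner list. Other genes were named after their values were seen.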

Additional observations from a re-analysis of the deposited data

How the results depend on the processing

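Kdm7a was the 1 histone methylation gene called with other pseudocounts, filters, scalings, the robust prior and by edgeR. DESeq2 called 5 of these genes, 1906 of all genes and 4 of the partner list genes. Leaving out 1 library at a time gave 0 to 4 histone methylation genes, 452 to 1620 of all genes (777 with all libraries) and 1 to 5 partner list genes (2 with all libraries). A library left alone in its group was assumed to vary like the others. With the replicate number as a block, 4 histone methylation genes (Kdm7a, Kdm3a, Kmt5a and Ezh1), 1721 of all genes and 4 partner list genes were called. The numbers, from the titles, do not pair the samples by any label, the file itself gives WT replicate 2 the number 3, and same-numbered deviations correlated at 0.332, which with 2 groups of 2 is by construction the same for both pairs. Direction turned only in named genes with small changes, and their causes were not tested. Leaving out 1 library gave log2 fold changes of -0.354 to 0.0208 for Dot1l, -0.0131 to 0.00697 for Kdm2a, -0.0913 to 0.398 for Kdm6b, -0.0945 to 0.0663 for Kdm8 and -0.132 to 0.0652 for Setd3. At a common sum they were 0.0474 for Kdm2a, 0.0323 for Kdm8 and 0.0172 for Setd3, with the median of all genes at 0.05, and edgeR gave 0.00341 for Kdm2a. With 2 libraries a group, 1.5-fold changes were mostly not recovered in simulation, so the genes without a call are bounded only by their intervals.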

Other observations

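Histone methylation genes varied little between replicates. The median absolute difference between replicates on the log2(CPM + 1) scale was 0.067 in Ptip_KO and 0.087 in WT for the 56 tested genes. For the 10302 tested genes within the same range of mean CPM it was 0.11 in Ptip_KO and 0.15 in WT. That range holds most of the 12357 tested genes, and levels within it were not matched to those of the 56. The median absolute log2 fold change was 0.13 for the 56 genes and 0.15 for the 10302.

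The promoters of these genes held more CpG dinucleotides than the median promoter. Of the 57 genes, 44 had a RefSeq promoter entry, and the 250 bases before the start held a median of 16.5 CpG, where all 32851 promoters held a median of 6.0. GGGCGG was in 61.4% of the 44 and CCAAT in 50% of them. The 32851 promoters were not limited to genes tested here, and no comparison was made with promoters of genes at like levels. These medians and shares are a description with no test.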
